A study of Homo sapiens with 15 samples.

Results

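OPRK1, CAMK2N1, ACKR3, BCHE and DDC are genes described as repressed by androgen in prostate cells, and they were taken by symbol from a table of 17272 genes measured in LNCaP cells. All 5 genes had a row and passed the filter on low values, a mean of at least 0.5 CPM over all libraries, which 17046 of 17272 genes passed. LNCaP is an established, androgen-sensitive prostate cancer line. All cells were kept for 2 days in medium with charcoal-stripped serum, which is low in steroids, and were harvested 22 h after treatment. In the R1881 + DMSO group (10 libraries) they received the synthetic androgen R1881 at 1 nM with the solvent DMSO, and in the R1881 + enzalutamide group (5 libraries) they received 1 nM R1881 together with 2 µM of the antiandrogen enzalutamide. The numbers of libraries are those of the sample labels, whereas the methods text gives them the other way round. Every group received androgen and no androgen-free arm was analysed here, so that the data show what happened to these genes when the action of R1881 was opposed, in a single cell line, and not what R1881 itself did to them.

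Androgen acts on prostate cells mainly through transcription, raising that of genes such as KLK3 and lowering that of others. Enzalutamide opposes both of these actions of androgen. The genes studied here belong to unrelated systems. OPRK1 encodes the kappa opioid receptor, which couples to inhibitory G proteins. ACKR3 encodes an atypical receptor that binds the chemokines CXCL12 and CXCL11, takes them up and signals through arrestin rather than G proteins. CAMK2N1 encodes an inhibitor of the calcium- and calmodulin-dependent kinase CaMKII. BCHE encodes butyrylcholinesterase, which hydrolyses choline esters, and DDC encodes aromatic L-amino acid decarboxylase, which makes dopamine and serotonin from their precursors.

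Positions are given on GRCh38 with the exons of the canonical transcript in the GENCODE v44 annotation. CAMK2N1 lies on chromosome 1 from 20482391 to 20486210 on the minus strand and has 2 exons. ACKR3 lies on chromosome 2 from 236567787 to 236582354 on the plus strand and has 2 exons. BCHE lies on chromosome 3 from 165772904 to 165837462 on the minus strand, with 4 exons, and DDC lies on chromosome 7 from 50458436 to 50565405 on the minus strand, with 15 exons. The annotation places an antisense long non-coding gene over OPRK1, LINC01322 over BCHE and DDC-AS1 over DDC, whereas no gene overlaps CAMK2N1 or ACKR3. The libraries were stranded, but how strand was used in counting is not stated, so reads of these antisense genes may be included.

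The upstream sequences are shown because all of these genes rose with enzalutamide, and because DDC has more than 1 annotated start. The windows of BCHE and DDC were taken from the RefSeq promoter table (GRCh38.p14), which had no entry for CAMK2N1 or ACKR3. OPRK1 was left out of the printed sequences and of the motif search below, so nothing is said here about its promoter. Printed 5′ to 3′ on the strand of the gene are the 250 bases before the RefSeq start of BCHE (chr3:165837424-165837673, minus strand) and before each of the starts listed for DDC (chr7:50561072-50561321 and chr7:50565406-50565655, minus strand), with CpG dinucleotides in capitals. The GENCODE start of BCHE lies at 165837462, so the last bases of its window are within the GENCODE gene.
BCHE: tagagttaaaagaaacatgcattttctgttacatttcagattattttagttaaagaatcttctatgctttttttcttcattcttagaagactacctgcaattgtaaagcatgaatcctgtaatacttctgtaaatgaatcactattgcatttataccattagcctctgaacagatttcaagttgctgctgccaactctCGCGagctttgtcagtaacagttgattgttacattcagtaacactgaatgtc
DDC, downstream start: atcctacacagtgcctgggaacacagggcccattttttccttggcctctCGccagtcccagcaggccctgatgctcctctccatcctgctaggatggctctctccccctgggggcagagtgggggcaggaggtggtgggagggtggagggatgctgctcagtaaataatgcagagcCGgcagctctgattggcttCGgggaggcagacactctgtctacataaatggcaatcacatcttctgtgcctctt
DDC, upstream start: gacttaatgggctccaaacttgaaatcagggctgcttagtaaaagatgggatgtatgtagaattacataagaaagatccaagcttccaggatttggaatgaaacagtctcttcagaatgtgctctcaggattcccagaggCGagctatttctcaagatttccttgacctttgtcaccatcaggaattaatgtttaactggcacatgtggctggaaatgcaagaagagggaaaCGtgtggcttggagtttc
The BCHE window had a GC content of 33.2% and 2 CpG dinucleotides, the downstream DDC window 58.0% and 3, and the upstream DDC window 42.4% and 2. The median over the same window of all 35116 promoters of the table was a GC content of 58.0% and 11 CpG dinucleotides, so that all 3 windows were poorer in CpG than the median promoter. On either strand, none of these windows held the androgen response element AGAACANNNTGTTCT, its relaxed form GNACANNNTGTNC, the half-site AGAACA or the forkhead core TGTTTAC. The full element contains the half-site, and the full form is also found by the relaxed search. Of all promoters, 0.00285% held the full element, 0.327% the relaxed form, 12.4% the half-site and 2.98% the forkhead core. A missing match says only that these letters are not in these bases.

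The depth was similar in the groups, with 15830745 to 24316740 reads on genes per library under R1881 + DMSO and 21188661 to 25416052 with enzalutamide. The effect of enzalutamide was checked on 8 androgen-induced genes, and all 8 fell, as did 32.7% of all genes tested. KLK3, which encodes prostate-specific antigen, fell from 1588 ± 209 to 134 ± 7.66 CPM (mean ± SD, n = 10 and 5), a log2 fold change of -3.55. FKBP5, a co-chaperone of steroid receptors, fell from 1502 ± 87.4 to 46.8 ± 3.11 CPM (log2 fold change -4.99). All 6 luminal prostate markers reported had a row, with a summed level of 4347 to 5774 CPM under R1881 + DMSO and 1071 to 1235 CPM with enzalutamide, a list in which KLK3, KLK2, KRT8 and KRT18 fell and HOXB13 and EPCAM rose. Of markers of other cells, KRT14 (basal) stayed at or under 1.44 CPM, SYP (neuroendocrine) at or under 2.10 CPM and COL1A1 (fibroblast) between 4.38 and 12.3 CPM, while KRT5, TP63, CHGA, INSM1, DCN and the endothelial and leukocyte markers had no row. COL1A1 was higher with enzalutamide (log2 fold change 0.69), and SYP and KRT14 were lower, and their part in the results was not tested.

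All 5 genes rose when enzalutamide was added to R1881, by 3.91 to 9.41-fold, and in each of them the lowest enzalutamide library lay above the highest R1881 + DMSO library. In the limma fit with Benjamini-Hochberg adjustment, 62.5% of all genes tested were called, 29.8% higher with enzalutamide and 32.7% lower, so a call as such is common in these data. Without overlap between the groups, 17.1% of the genes were higher and 20.1% lower, while 3.26% were called and at least 2-fold higher and 4.19% at least 2-fold lower. Only 0.557% of the genes tested, 95 in number, had a log2 fold change as high as that of BCHE, the lowest of the 5. In bulk RNA, a higher level in each cell and a larger number of cells that express a gene cannot be told apart.

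**Figure D1:**
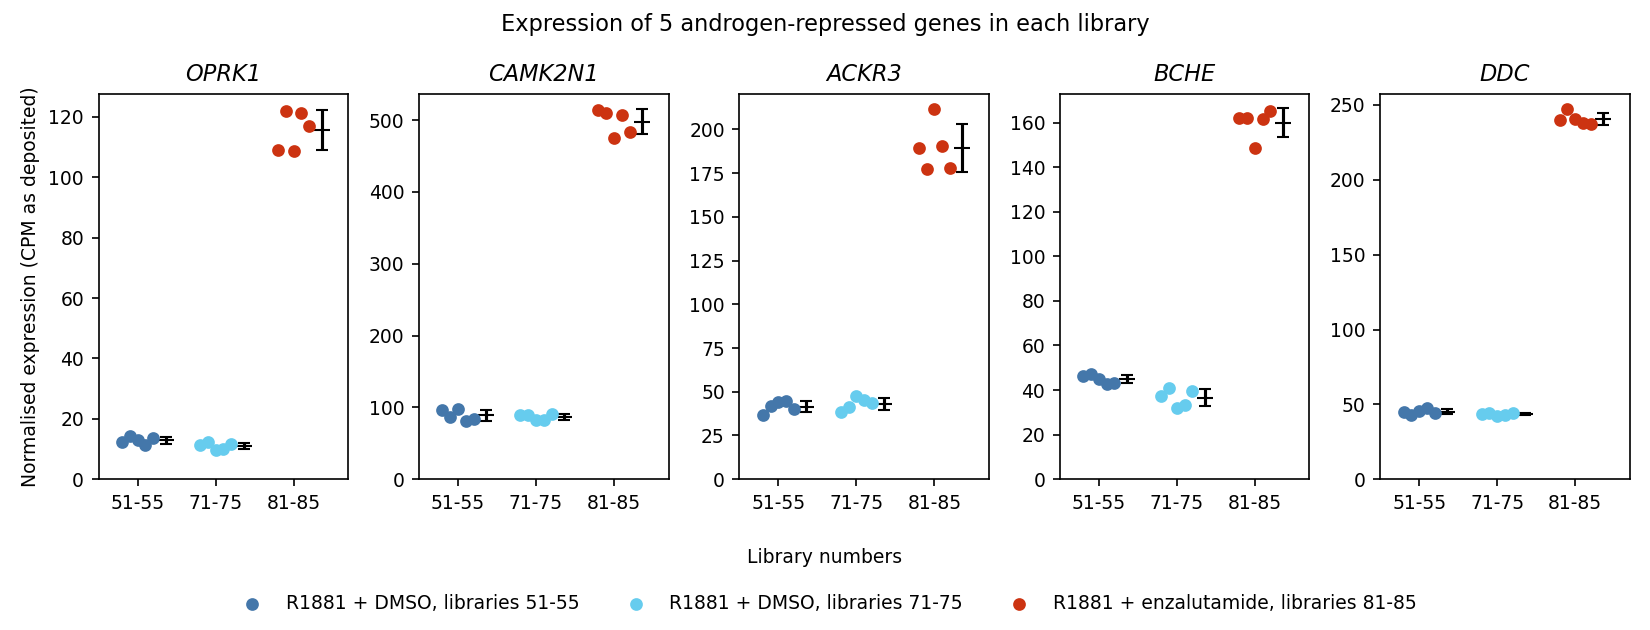
Expression of the 5 genes in each library, with normalised expression in CPM as deposited on the vertical axis (linear, from 0) and libraries grouped by their numbers on the horizontal axis; black bars give the mean ± SD of each series of 5 libraries. All 5 enzalutamide libraries lie above all 10 R1881 + DMSO libraries in every panel, and libraries 71 to 75 lie below 51 to 55 in BCHE.

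Of the receptors, OPRK1 showed the largest change. On GRCh38 it lies on chromosome 8 from 53225724 to 53251637 on the minus strand, with 4 exons. Its level ranged from 9.72 to 14.3 CPM under R1881 + DMSO, with a median of 11.9 CPM. With enzalutamide it was 109 CPM in library 81, 122 CPM in library 82, 109 CPM in library 83, 121 CPM in library 84 and 117 CPM in library 85. The groups were therefore far apart, the lowest enzalutamide library being 7.59 times the highest R1881 + DMSO library. The mean rose from 11.9 ± 1.46 to 116 ± 6.53 CPM, a log2 fold change of 3.23 (SE 0.074) or 9.41-fold (95% interval 8.45 to 10.5), with an adjusted p of 4.16e-19 in the limma fit. OPRK1 ranked 9 of the 17046 genes by log2 fold change.

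ACKR3 ranged from 36.9 to 47.4 CPM under R1881 + DMSO, with a median of 42.6 CPM. With enzalutamide it was 189 CPM in library 81, 177 CPM in library 82, 212 CPM in library 83, 191 CPM in library 84 and 178 CPM in library 85. Library 83 was the highest of these, and the lowest was still 3.74 times the highest R1881 + DMSO library. The log2 fold change was 2.15 (SE 0.055), or 4.43-fold (95% interval 4.09 to 4.80), with an adjusted p of 3.02e-18 in limma and rank 64.

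The kinase inhibitor gene CAMK2N1 had a level of 80.8 to 97.2 CPM under R1881 + DMSO, with a median of 87.8 CPM. It reached 515 CPM in library 81, 509 CPM in library 82, 476 CPM in library 83, 507 CPM in library 84 and 484 CPM in library 85 with enzalutamide. The gap between the groups was 4.89-fold from the highest R1881 + DMSO to the lowest enzalutamide library. CAMK2N1 thus rose by a log2 fold change of 2.50 (SE 0.044), or 5.65-fold (95% interval 5.31 to 6.03), with an adjusted p of 4.99e-21 in limma and rank 32.

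Of the enzymes, DDC had the most even values. It ranged from 42.2 to 47.4 CPM under R1881 + DMSO, with a median of 44.1 CPM, and was 240 CPM in library 81, 247 CPM in library 82, 241 CPM in library 83, 238 CPM in library 84 and 237 CPM in library 85 with enzalutamide. The lowest enzalutamide library was 5.00 times the highest R1881 + DMSO library. The log2 fold change was 2.43 (SE 0.032), or 5.39-fold (95% interval 5.15 to 5.65), with an adjusted p of 5.62e-23 in limma. By log2 fold change DDC ranked 40, but by p-value it ranked 15 of all genes tested, ahead of the other 4 genes.

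BCHE had the smallest change and, relative to its mean, the widest spread under R1881 + DMSO. Its level was 32.1 to 47.0 CPM there, with a median of 41.8 CPM. With enzalutamide it was 162 CPM in library 81, 162 CPM in library 82, 149 CPM in library 83, 161 CPM in library 84 and 165 CPM in library 85. Library 83 was low among these, yet the gap to the highest R1881 + DMSO library was 3.16-fold. The log2 fold change was 1.97 (SE 0.076), or 3.91-fold (95% interval 3.51 to 4.37), with an adjusted p of 2.99e-15 in limma and rank 95.

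Among the 3003 ways to split the libraries into 10 and 5, the observed split gave the most extreme difference for each of the 5 genes (exact permutation p = 0.000333, two-sided, the smallest value possible). The pseudocount of 0.5 CPM slightly understates the change of OPRK1, the gene with the lowest level. The ratio of its median CPM between the groups was 9.82. Changes of genes named below whose level was near 0.5 CPM in a group, such as RGS4, CXCR4 and MET, are understated more.

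**Figure D2:**
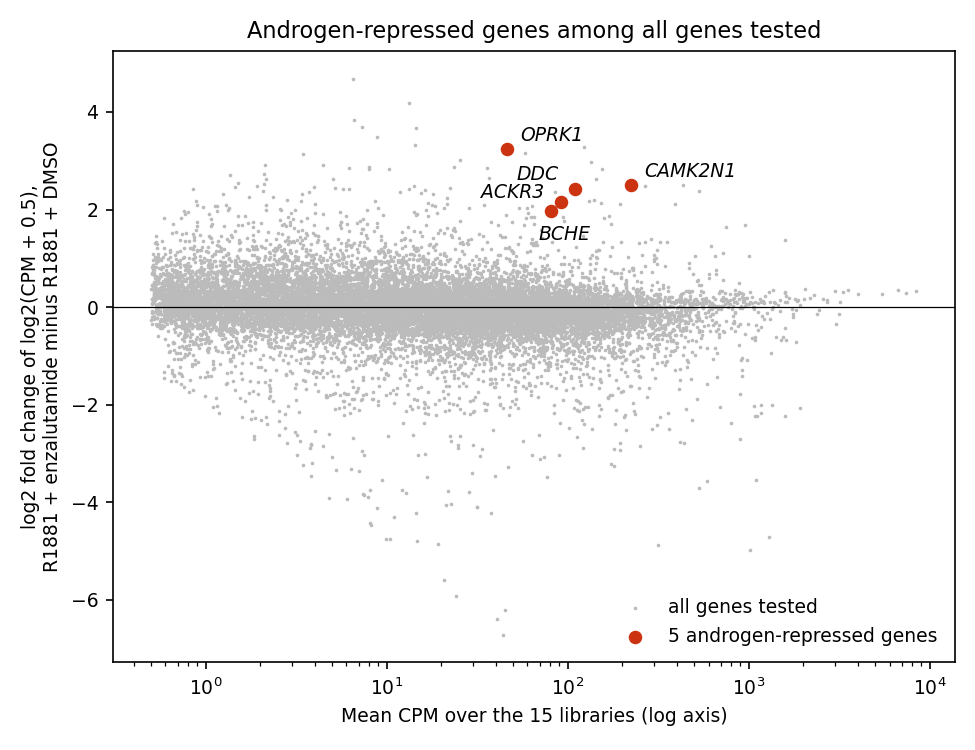
Log2 fold change of log2(CPM + 0.5), R1881 + enzalutamide minus R1881 + DMSO (vertical), against the mean CPM over the 15 libraries (horizontal, log axis) for the 17046 genes tested (grey) and the 5 androgen-repressed genes (red). The 5 genes lie between 1.97 and 3.23, where 0.557% of all genes reached at least the value of BCHE.

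The spread between libraries of the same treatment was compared with the counting error of the reads. Under R1881 + DMSO the coefficient of variation of DDC was 3.32%, next to 3.23% from counting alone at its median of 959 reads. For OPRK1 it was 12.2% against 6.40% at 244 reads, and for BCHE 12.7% against 3.39% at 868 reads. CAMK2N1 had 6.67% against 2.34%, and ACKR3 had 7.77% against 3.37%. DDC thus varied about as little as its read number allows. The value of BCHE pools both series of R1881 + DMSO libraries (libraries 51 to 55 and 71 to 75), whose means differ, and within the first of these it was 4.24% against 3.20% from counting, and within the other it was 10.3% against 3.75%. With enzalutamide the coefficients were 5.65% for OPRK1, 3.47% for CAMK2N1, 7.36% for ACKR3, 4.03% for BCHE and 1.70% for DDC. The counting error leaves out any error of library preparation, and reads without molecular identifiers are not independent molecules.

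Levels of different genes were compared only after division by the length of all their exons, as CPM per kb, with lengths of 5.67 kb for OPRK1, 2.605 kb for CAMK2N1, 2.07 kb for ACKR3, 3.072 kb for BCHE and 3.084 kb for DDC. The transcript forms in use in these cells were not measured, so these levels are approximate. The order was CAMK2N1, ACKR3, DDC, BCHE and OPRK1 under both treatments. Under R1881 + DMSO the mean levels were 33.7 ± 2.25, 20.5 ± 1.59, 14.3 ± 0.476, 13.3 ± 1.68 and 2.10 ± 0.257 CPM per kb in that order (n = 10). DDC and BCHE were the only neighbours whose ranges overlapped, with DDC higher in 8 of 10 libraries. With enzalutamide the mean levels were 191 ± 6.63, 91.5 ± 6.74, 78.01 ± 1.32, 52.0 ± 2.10 and 20.4 ± 1.15 CPM per kb (n = 5), and no neighbours overlapped. OPRK1 remained the lowest of the 5 genes after its rise.

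The genes did not all rise by the same factor. Ratios between genes within a library do not depend on how library sizes are scaled, and 10 such ratios were compared. The ratio of OPRK1 to BCHE was 0.262 to 0.314 under R1881 + DMSO and 0.672 to 0.753 with enzalutamide, and the ratio of OPRK1 to CAMK2N1 was 0.119 to 0.165 and 0.212 to 0.242. In the same way OPRK1 rose relative to DDC, from 0.230 to 0.333 up to 0.451 to 0.511, and relative to ACKR3, from 0.205 to 0.344 up to 0.513 to 0.688. The ratio of CAMK2N1 to BCHE also rose without overlap, from 1.84 to 2.55 up to 2.93 to 3.20, and that of BCHE to DDC fell from 0.760 to 1.09 down to 0.618 to 0.696. Each of these 6 ratios had an exact permutation p of 0.000333, unadjusted for the 10 ratios. The ratio of CAMK2N1 to ACKR3 rose (exact permutation p = 0.00333) and that of ACKR3 to DDC fell (p = 0.000666, exact permutation test), both with overlapping ranges. No difference was shown for CAMK2N1 to DDC, whose median ratio was 2.01 and 2.06 (exact permutation p = 0.223), or for ACKR3 to BCHE, whose median ratio was 1.02 and 1.17 (exact permutation p = 0.199). OPRK1 therefore rose more than each of the other 4 genes.

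The R1881 + DMSO libraries carry numbers from 51 to 55 and from 71 to 75, and the enzalutamide libraries from 81 to 85. What the numbers stand for is not given, and for the enzalutamide libraries the number series and the treatment cannot be told apart. A comparison of both R1881 + DMSO series gives the size of a difference that is not the treatment, for these series only. In limma, 3.17% of the genes tested were called between them, 2.35% lower and 0.821% higher in libraries 71 to 75. This number rested on single libraries, since the 541 genes became 55, 60, 73 or 86 without library 51, 52, 53 or 74, 282, 344 or 349 without library 72, 73 or 55, and 964 without library 71. BCHE was the single gene of the 5 to be called. Its level was 46.4, 47.0, 45.0, 42.9 and 43.0 CPM in libraries 51 to 55 and 37.3, 40.8, 32.1, 33.5 and 39.6 CPM in libraries 71 to 75, without overlap, as 6.67% of the genes tested were in either direction. The mean fell from 44.9 to 36.6 CPM, a log2 fold change of -0.29 (SE 0.064) with an adjusted p of 0.0288 in limma and an exact permutation p of 0.00794 over 252 regroupings, the smallest it can give. This call was lost in limma when library 74, 53, 51 or 52 was left out, which are R1881 + DMSO replicates 5, 7, 9 and 10 (adjusted p of 0.0802, 0.0848, 0.0894 and 0.0824).

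OPRK1 was 12.8 ± 1.18 CPM in libraries 51 to 55 and 10.97 ± 1.080 CPM in libraries 71 to 75, a log2 fold change of -0.22 that was not called (adjusted p of 0.137 in limma). The other log2 fold changes between the series were -0.03 for CAMK2N1, 0.06 for ACKR3 and -0.05 for DDC, with 95% intervals of -0.15 to 0.09, -0.08 to 0.19 and -0.14 to 0.04. None of these was called (adjusted p of 0.747, 0.614 and 0.467 in limma). Against libraries 51 to 55 alone the enzalutamide log2 fold change was 3.12 for OPRK1 and 1.82 for BCHE, and against 71 to 75 alone it was 3.34 and 2.12. For CAMK2N1 it was 2.48 and 2.52, for ACKR3 2.17 and 2.12 and for DDC 2.41 and 2.46. The difference between the treatments was thus many times that between both R1881 + DMSO series for every gene. Whether the enzalutamide libraries carry a series difference of their own was not tested, since their number series and the treatment cannot be told apart.

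**Figure D3:**
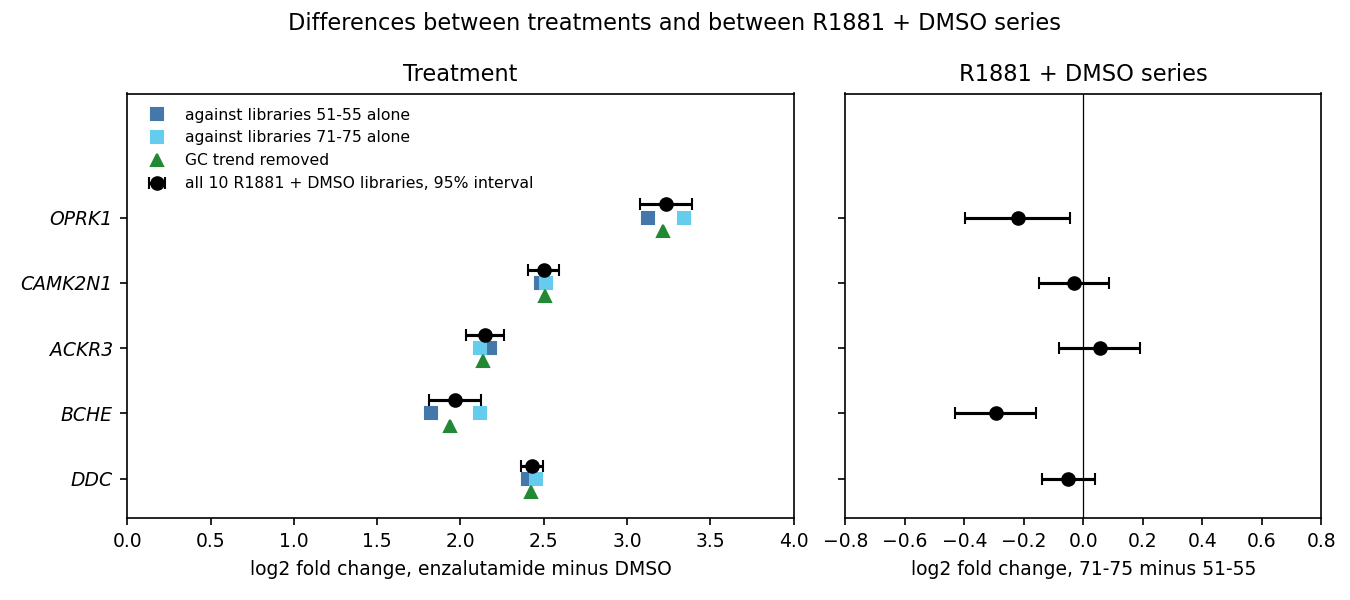
Log2 fold change of each gene between treatments (left) and between both series of R1881 + DMSO libraries (right), with black points and bars for the value with its 95% interval and coloured symbols for alternative comparisons. All treatment values lie above 1.8, whereas the series values lie between -0.29 and 0.06.

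Libraries of the same series differed in how their gene levels depended on GC content. Of the genes in the table, 80.8% could be matched to a GC content. Over the 13790 of these that were tested, Spearman's rho between a gene's GC content and its deviation from the mean of its series ranged from -0.535 in library 71 to 0.707 in library 83. BCHE has a GC content of 37.6% in its longest transcript, lower than all but about 7% of the matched genes of the table. The median over the matched genes that were tested was 47.5%. Its deviations followed this measure over the 15 libraries with a Pearson r of -0.87. For OPRK1 (44.7%) r was -0.74 and for CAMK2N1 (52.1%) it was -0.69. For ACKR3 (48.9%) r was 0.70, and for DDC (49.6%) it was -0.01. These correlations are descriptions over 15 libraries that share the scaling of their series. BCHE thus followed the GC trend of its library closely, and DDC did not. CAMK2N1 lay above the median GC content but had a negative r, and ACKR3 and DDC differed in r at similar GC contents. Whether the GC content of a gene underlies its r was not tested. In library 83, where the trend was steepest, ACKR3 was the highest and BCHE, CAMK2N1 and OPRK1 were the lowest of the enzalutamide libraries. With the trend removed from each library, a setting added after the data had been seen, the log2 fold changes with enzalutamide were 3.21 for OPRK1, 2.51 for CAMK2N1, 2.14 for ACKR3, 1.94 for BCHE and 2.42 for DDC. The difference of BCHE between the series was then -0.19 (adjusted p of 0.00851 in limma).

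**Figure D4:**
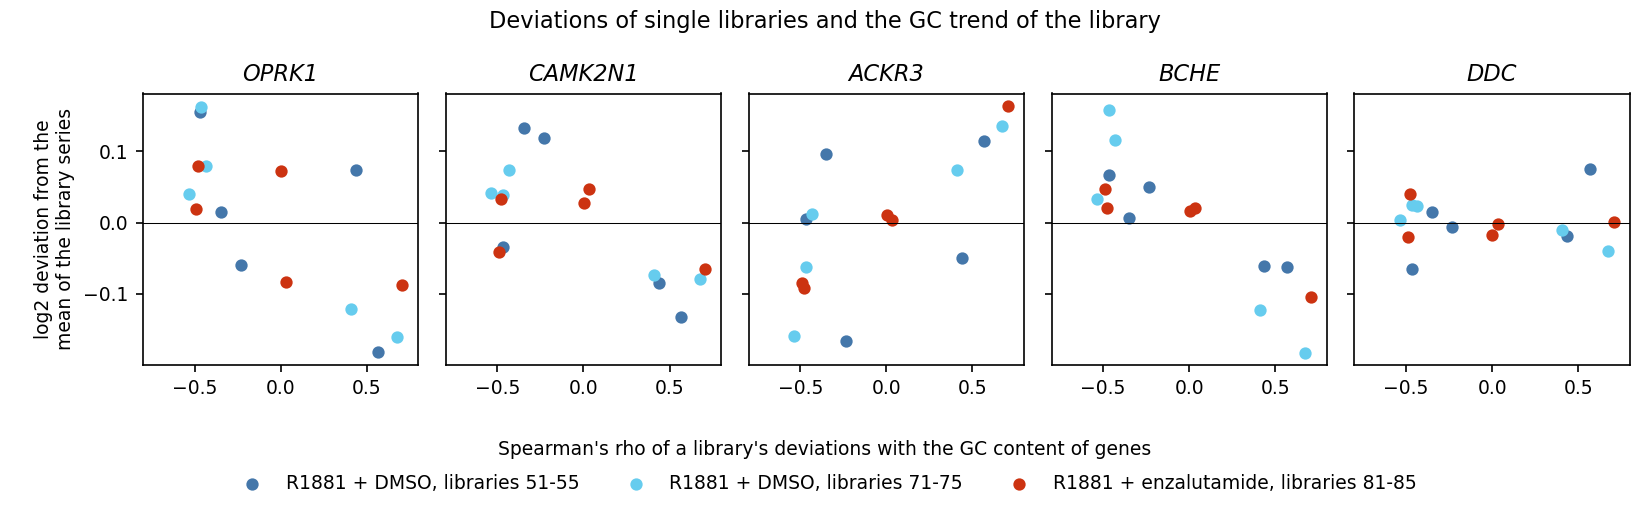
Deviation of each gene from the mean of its library series (vertical, log2 scale) against Spearman's rho of that library's deviations with the GC content of genes (horizontal), with a point for each of the 15 libraries. BCHE falls along the axis (r = -0.87), ACKR3 rises (r = 0.70) and DDC shows no trend (r = -0.01).

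The genes nearest to each member in these deviations were taken from the 12164 genes with a mean of at least 5 CPM. For OPRK1 they were ZCCHC9 (Pearson r = 0.93), FRAS1 (0.93) and HMGN5 (0.92), for CAMK2N1 TIAL1 (0.92), KPNA1 (0.92) and LAPTM4A (0.91), and for ACKR3 LAMTOR2 (0.93), EPHA1 (0.91) and CDAN1 (0.91). For BCHE they were TNPO1 (0.95), ATP2C1 (0.94) and HSDL1 (0.94), and for DDC POFUT1 (0.91), NFKB1 (0.83) and PPARGC1B (0.82). These r values are over 15 libraries that share the GC trend described above. Most of these genes did not follow the members across treatments. FRAS1 had a log2 fold change of 1.99 with enzalutamide, NFKB1 of 1.28 and EPHA1 of 0.70, but ZCCHC9 had -0.52, KPNA1 -0.53 and ATP2C1 -0.29. The others lay between -0.36 (PPARGC1B) and 0.14 (HSDL1). Among the members themselves, BCHE deviated with OPRK1 (r = 0.76) and CAMK2N1 (0.64) and opposite to ACKR3 (-0.62), and the r values of DDC with the others were -0.18 to 0.15.

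Genes of the same systems are given beside all genes tested, of which 29.8% were called higher and 32.7% lower, with a median log2 fold change of -0.01. With 9 to 12 genes tested per list, counts that lie near these shares are no result about a system. Of the opioid peptides, receptors and signalling genes beside OPRK1, 9 of 16 were tested, and 3 rose, 3 fell and 3 were not called, with a median of 0.08. The mu and delta receptor genes OPRM1 and OPRD1 and the peptide precursor genes PDYN, PENK, POMC and PNOC had no row. The opioid receptor gene OPRL1 was low and rose from 0.740 ± 0.228 to 1.44 ± 0.322 CPM (log2 fold change 0.65), with overlapping ranges. The inhibitory G protein subunit gene GNAI1 rose from 62.4 ± 2.998 to 82.1 ± 4.24 CPM (log2 fold change 0.39), while GNAI3 fell from 169 ± 12.5 to 127 ± 4.41 CPM (-0.41) and RGS4, which encodes a G protein inhibitor, fell from 1.12 ± 0.210 to 0.322 ± 0.122 CPM (-0.98).

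Of the CaMKII and calmodulin genes beside CAMK2N1, 11 of 13 were tested, and 4 rose, 5 fell and 2 were not called (median -0.05). The kinase subunit genes CAMK2B, CAMK2D and CAMK2G rose by log2 fold changes of 0.52, 0.66 and 0.14, while CAMK2N2, which encodes the related inhibitor, fell from 3.24 ± 0.767 to 2.12 ± 0.453 CPM (-0.50). CAMKK2, a kinase upstream of the CaMK family, fell from 244 ± 9.94 to 77.6 ± 2.36 CPM (-1.65). CAMK1D, a CaMK family kinase, rose from 1.64 ± 0.309 to 8.72 ± 1.10 CPM (2.11). CAMK1, of the same family and with a higher level, fell from 51.3 ± 2.48 to 27.8 ± 1.76 CPM (-0.87). The 2 inhibitor genes thus moved in opposite directions.

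Of the genes around ACKR3, 10 of 20 were tested, and 5 rose, 3 fell and 2 were not called (median 0.22). The ligand genes CXCL12 and CXCL11 had no row. CXCR4, the classical CXCL12 receptor, fell from 6.88 ± 0.655 to 0.720 ± 0.091 CPM, a log2 fold change of -2.59 (SE 0.081) with an adjusted p of 7.78e-17 in limma. The receptor genes for this chemokine therefore changed in opposite directions. The arrestin gene ARRB2 rose from 25.03 ± 1.59 to 33.4 ± 1.76 CPM (0.41), while ARRB1 was not called (27.9 ± 1.77 and 29.5 ± 0.868 CPM). Of the receptor kinase genes, GRK2 fell from 127 ± 19.4 to 68.0 ± 9.59 CPM (-0.89) while GRK3 rose from 23.7 ± 1.77 to 33.6 ± 1.82 CPM (0.49).

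Of the genes of cholinesterases and acetylcholine handling beside BCHE, 10 of 16 were tested, and 4 rose, 1 fell and 5 were not called (median 0.08). ACHE, which encodes the other cholinesterase, had no row. The choline transporter gene SLC44A1 rose from 72.1 ± 3.98 to 317 ± 15.5 CPM, a log2 fold change of 2.13 (SE 0.042) with an adjusted p of 2.99e-20 in limma. COLQ and PRIMA1, whose products anchor acetylcholinesterase, rose by 1.24 and 0.45 on the log2 scale from levels of 1.24 ± 0.216 and 0.923 ± 0.314 CPM. The nicotinic receptor subunit gene CHRNA7 fell from 1.64 ± 0.324 to 1.07 ± 0.308 CPM (-0.46). The subunit genes CHRNA5 (13.0 ± 1.30 CPM under R1881 + DMSO) and CHRNB1 (2.64 ± 0.464 CPM) were not called.

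Of the genes of monoamine synthesis, transport and breakdown beside DDC, 12 of 23 were tested, and 2 rose, 5 fell and 5 were not called (median -0.02). The hydroxylase genes TH, TPH1 and TPH2, which act before DDC, and the vesicular transporter genes SLC18A1 and SLC18A2 had no row. MAOA, which encodes the monoamine oxidase that breaks down serotonin, fell from 1228 ± 49.4 to 801 ± 27.7 CPM (-0.62). AADAT, an aminotransferase of the tryptophan pathway, fell from 25.4 ± 2.05 to 11.5 ± 1.19 CPM (-1.12).

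A further 9 genes described as repressed by androgen were all tested. Of these, 6 rose, 2 fell and 1 was not called, with a median log2 fold change of 1.04. Of all genes tested, 29.8% were called higher and 32.7% lower, with a median of -0.01. UGT2B15 and UGT2B17, which encode androgen-glucuronidating enzymes, rose by 2.51 and 2.37, to 960 ± 38.2 and 1149 ± 47.2 CPM. They are near-identical copies, so the split of reads between them is uncertain. NTS, the neurotensin gene, rose from 26.5 ± 3.86 to 109 ± 8.53 CPM (2.03), MET, the receptor of hepatocyte growth factor, from 0.278 ± 0.121 to 1.68 ± 0.294 CPM (1.49), and FOLH1, which encodes prostate-specific membrane antigen, from 740 ± 37.1 to 1526 ± 69.7 CPM (1.04). BCL2, an inhibitor of apoptosis, rose by 0.28 on the log2 scale. THBS1, which encodes the matrix protein thrombospondin, fell from 72.3 ± 7.36 to 29.8 ± 1.85 CPM (-1.26), PEG10 fell by 0.33 on the log2 scale, and CLU was not called (44.6 ± 3.98 and 47.7 ± 3.19 CPM). OPRK1 rose more than any of these 9 genes in log2 fold change, CAMK2N1 lay next to UGT2B15, and BCHE lay just below NTS. The place of MET on this scale is lowered by the pseudocount of 0.5 CPM, since its mean under R1881 + DMSO was below that value.

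**Figure D5:**
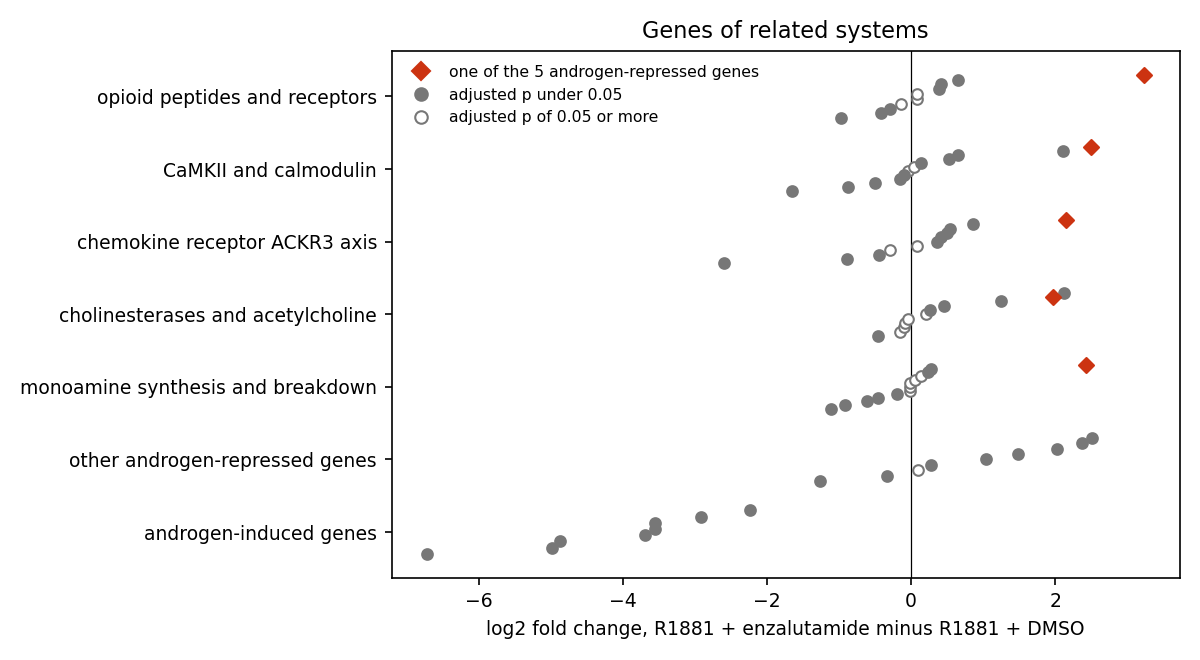
Log2 fold change, R1881 + enzalutamide minus R1881 + DMSO, of the tested genes of 7 lists, with red diamonds for the 5 androgen-repressed genes, filled points for genes with an adjusted p under 0.05 and open points for the others. In the opioid, CaMKII, chemokine and monoamine lists the red gene is the highest, in the cholinesterase list SLC44A1 (2.13) lies above BCHE (1.97), and all 8 androgen-induced genes lie at -2.24 or lower.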

How the data were processed

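Polyadenylated RNA of LNCaP cells was sequenced by the authors in 15 libraries (stranded kit, single-end reads of 50 bases), mapped with STAR to GRCh38 and counted with featureCounts. The deposited table holds a normalised signal per gene, which the methods call CPM. No source used here gives the versions of these tools, the annotation or the rule behind the 17272 genes. Columns sum to 985580 to 1078567, so library sizes were scaled. All values (100.0%) are whole multiples of 1 read within 0.01 reads, which gives the depth. No column lacked a sample.

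Gene-wise tests used limma 3.58.1 in R 4.3.3 on log2(CPM + 0.5) with a mean-variance trend, treatment (or library series) as the only term, Benjamini-Hochberg adjustment over 17046 genes and a threshold of 0.05. Since the unit was a scaled signal and not plain CPM, the test for normalised values was kept, with edgeR 4.0.16 and DESeq2 1.42.0 on recovered reads as alternatives. Single values were tested by two-sided exact permutation over libraries. The methods call the libraries biological replicates, but nothing ties them to separate cultures, so p-values measure the spread between these libraries, which may be technical. No library repeats another: counts of all 55 pairs within a treatment differed beyond sampling noise (lowest chi-square over degrees of freedom 1.63).

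Members, lists and tests were chosen with earlier results of these data known. From each list, genes past the threshold with a log2 fold change of at least 1 in size were named, otherwise the 3 with the lowest adjusted p; every androgen-induced gene counted as a check, and 3 genes by likeness were named for each member. Other list genes were named for their role after their values were seen: the CaMKII subunits, CAMK2N2, ARRB2, GRK2, GRK3, PRIMA1, CHRNA7, MAOA, BCL2, PEG10 and CLU. The same holds for OPRL1, CAMK1, ARRB1, CHRNA5 and CHRNB1. GRK2 and GRK3 were matched by older symbols. A few genes of the lists are not reported here and were left out of their counts. Positions are from GENCODE v44 and promoters from RefSeq. The alternatives were other pseudocounts (0.1 and 1), filters, scalings, tools, replicate blocks, single library series, leaving out each library and, added after seeing the data, removal of the GC trend.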

Additional observations from a re-analysis of the deposited data

Results flagged for a closer look

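In R1881 + enzalutamide replicate 2 (library 83), BCHE had 149 CPM, below the other 4 libraries of the group, of which the nearest had 161 CPM, and the gap was 0.781 of the range of the group. The same library had the steepest dependence on GC content (Spearman's rho of 0.707). In R1881 + enzalutamide replicate 3 (library 81), CAMK1D had 6.82 CPM, while the nearest library had 8.94 CPM (0.742 of the range). R1881 + enzalutamide replicate 5 (library 84) had 25416052 reads on genes against 22329140 in the nearest library (0.730 of the range). Of the 58 groups of values examined, 3 stood apart in this way, where chance gives about 2.9.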

How the results depend on the processing

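The members' log2 fold changes with enzalutamide kept their direction and their call under all 29 alternatives, with ranges of 3.12 to 3.34 for OPRK1, 2.48 to 2.59 for CAMK2N1, 2.11 to 2.24 for ACKR3, 1.82 to 2.12 for BCHE and 2.41 to 2.52 for DDC. All genes called between treatments numbered 10010 to 10929. The list genes called higher, 23 in the reported fit, were 19 to 28, and those called lower, 27, were 24 to 28. Between the R1881 + DMSO series, 541 genes were called, against 965 with DESeq2, 854 with the GC trend removed and 55 to 964 when each library was left out in turn. Those counts were 55 without library 51, 60 without 52, 73 without 53, 86 without 74, 282 without 72, 344 without 73, 349 without 55 and 964 without 71, and the cause was not tested. The CAMK2N1 difference between the series, which was not called, changed sign to 0.00156 without R1881 + DMSO replicate 7 (library 53), its range on leaving out a library being -0.065 to 0.00156, and that of BCHE was -0.33 to -0.25. Of the 5 members, 0 to 1 were then called between the series.

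With a replicate block on the title numbers, the log2 fold changes were 3.28 for OPRK1, 2.54 for CAMK2N1, 2.14 for ACKR3, 2.02 for BCHE and 2.42 for DDC, and 10043 genes were called. With a replicate block on the last digit of the library number 10720 genes were called, and neither block changed the call of a member. Correlations of the deviations of libraries that share a number were -0.07 to 0.07 over 5 pairs of title numbers, 0 of them over 0.1, and -0.42 to 0.67 over 10 pairs of last digits, 2 of them over 0.1. Since not every pair passed 0.1, the numbers were not taken as pairs. Counting error limits OPRK1 most, at 159 to 306 reads per R1881 + DMSO library.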
